A study of Mus musculus and Homo sapiens with 42 samples.

Results

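Gene expression at baseline was compared between 2 human cancer cell lines, K562 and SNB19, in the 4 libraries that carried a control hairpin. K562 is a leukemia line from a patient with chronic myelogenous leukemia that grows in suspension and depends on a fusion tyrosine kinase. SNB19 is an adherent line from a glioblastoma, a malignant brain tumor with glial features. The libraries were chosen by their labels and not by a measured value: 2 of K562 and 2 of SNB19, each bearing the luciferase hairpin (shLuc), out of 12 libraries of the human lines and 42 libraries of the series. The series asks what the chromatin remodeler CHD9 does in mouse tissues, tumors and cells and in these 2 lines. Other libraries of the lines carried 1 of 2 hairpins against CHD9, and the values of those 8 libraries are used only where they are named.

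All 4 control libraries came from cells with a doxycycline-inducible short hairpin RNA against luciferase, a gene that human cells do not have, treated with 1 μg/ml doxycycline for 48 h. The lines share the vector and the drug but not the medium, which was RPMI-1640 for K562 and DMEM for SNB19, so that line and medium cannot be told apart. Neither the labels nor the methods say whether the transduced cells were a pool or a clone, or whether exp1 and exp2 were separate cultures, and the p-values below therefore measure only the spread between these libraries.

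The control libraries held between 8553697 and 10234795 counts. Each table listed 29828 genes, among them 48.9% of the protein-coding genes of the annotation used for names, and several classical markers of both lineages were not analysed here. Counts are given as CPM, which sets them relative to the library's total after edgeR's TMM scaling, in which 1 count was worth between 0.104 and 0.115 CPM. The replicates were not equally close: over genes with at least 20 counts in a pair, the chi-square statistic per degree of freedom, which is near 1 when only sampling separates 2 libraries, was 9.13 for the K562 pair and 1.16 for the SNB19 pair. The SNB19 pair still differed by more than sampling noise (chi-square test, p = 9.48e-23) and was counted as 2 libraries. The mitochondrial share of the counts ranged from 2.50% to 2.76% over the control libraries.

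A difference was called at a Benjamini-Hochberg adjusted p under 0.05 in the quasi-likelihood test of edgeR and a log2 fold change (K562 minus SNB19) beyond 1. Of 9639 genes with enough counts for the test, 5311 were called, or 55.1% of them. Those higher in K562 numbered 2568 (26.6%) and those higher in SNB19 numbered 2743 (28.5%), while 4328 were not called. The median log2 fold change over all genes tested was -0.02 and the quartiles were -1.31 and 1.11, and the share of a gene list that was called is read below against these percentages. Scaling to total counts in place of TMM would move every log2 fold change up by a median of 0.25.

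A smaller set was on in 1 line and at the counting floor in the other, here defined as called, at 3 counts or fewer in both libraries of the lower line and at a mean of 10 CPM or more in the higher. There were 186 such genes for K562 (1.93% of those tested) and 423 for SNB19 (4.39%). Such a gene passes the filter on low counts only through the line where it is high. Its direction was therefore set by the filter, also where the tested members of a list are counted below. The same holds for other genes that were too low in 1 line to pass the filter there. Those genes were not counted, so that the numbers below of members that entered the test through 1 line are minimums. A fold for genes at the counting floor is a lower bound, computed against 3 counts in each library of the lower line and written as "at least".

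**Figure D1:**
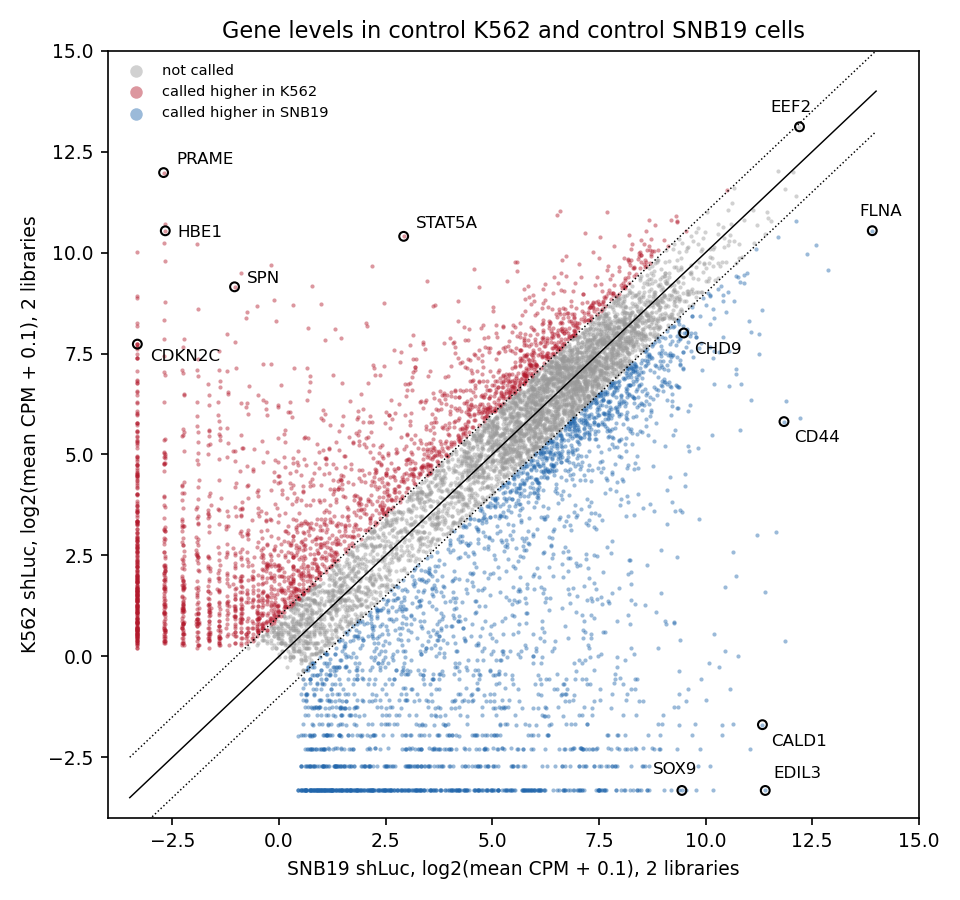
Mean level of each tested gene in the SNB19 shLuc libraries (horizontal) and the K562 shLuc libraries (vertical), both as log2(mean CPM + 0.1) of 2 libraries; the solid line marks equal levels and the dotted lines a 2-fold difference, and a few genes that are not reported here are left out. PRAME, HBE1 and CDKN2C lie at the left edge, at 0 or 1 count in the SNB19 libraries, while EDIL3, SOX9 and CALD1 lie at the bottom, at 3 counts or fewer in each K562 library.

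Hemoglobin is a tetramer of alpha-type and beta-type globin chains around heme. The beta-type genes lie in a row on chromosome 11 and are used in turn during development, HBE1 in the embryo, HBG1 and HBG2 in the fetus, and HBB with a little HBD after birth. K562 cells are known for making embryonic and fetal globins and little or no adult beta-globin, and red cell precursors make globins together with the glycophorins, the spectrin skeleton and the enzymes of heme synthesis.

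Of 8 globin genes in the tables, 6 were tested and all 6 were higher in K562. Of these, 5 were on in K562 alone and entered the test only through K562. HBE1 stood at 1349 and 1629 CPM in the K562 libraries and at 0 and 0.115 CPM (0 and 1 count) in the SNB19 libraries, at least 4483-fold higher (adjusted p = 2.22e-10). HBG1 stood at 230 and 194 CPM and HBG2 at 160 and 176 CPM in K562, and neither had a count in SNB19, which made them at least 639-fold and at least 506-fold higher. The alpha-globin gene HBA1 reached 73.1 and 114 CPM in K562 and HBD 16.0 and 20.2 CPM, again with no count in SNB19. As background for these calls, with the adjusted p alone 3960 of the 9639 genes tested were higher in K562 and 4094 were higher in SNB19. In RNA from a whole culture, a high level in some cells and a lower level in all of them cannot be told apart. HBB, the adult beta-globin gene, had 0 and 2 counts in K562 and none in SNB19, and HBM had none in either line. Per kilobase of exon, using approximate lengths from the GENCODE annotation, HBE1 had 1549 CPM per kb in K562, against 193 for HBG2, 128 for HBG1, 112 for HBA1 and 14.3 for HBD. For HBG2, HBG1 and HBA1 these values may be too low, since reads shared with a near-identical gene may have been left out.

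The separate values of HBG1 and HBG2 are uncertain. The sources used here do not say how reads that fit both genes were counted. If such reads were left out, the sum of the 2 genes is too low as well. Their coding sequences, taken from the GENCODE transcripts, are both 444 bases long and differ at 2 bases (99.5% identity), while HBE1 differs from HBG1 at 73 (83.6%). The 2 coding stretches that hold those differences are shown 5′ to 3′ to let the reader see how little separates the fetal genes and how much more separates the embryonic one. Capitals mark the bases that differ from HBG1, first for coding bases 181 to 270 and then for coding bases 355 to 444, the last 3 being the stop codon.
HBG1 181 to 270: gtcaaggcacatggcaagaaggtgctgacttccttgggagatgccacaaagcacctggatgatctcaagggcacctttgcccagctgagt
HBG2 181 to 270: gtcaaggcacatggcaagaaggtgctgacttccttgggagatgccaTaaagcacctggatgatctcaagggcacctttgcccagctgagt
HBE1 181 to 270: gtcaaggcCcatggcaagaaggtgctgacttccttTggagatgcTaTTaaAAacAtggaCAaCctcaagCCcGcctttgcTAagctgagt
HBG1 355 to 444: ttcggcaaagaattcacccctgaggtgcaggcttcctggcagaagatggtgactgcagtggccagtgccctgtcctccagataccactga
HBG2 355 to 444: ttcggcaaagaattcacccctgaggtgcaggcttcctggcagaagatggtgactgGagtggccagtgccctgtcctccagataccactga
HBE1 355 to 444: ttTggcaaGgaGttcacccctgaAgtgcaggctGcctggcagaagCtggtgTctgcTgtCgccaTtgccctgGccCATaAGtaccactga
The coding sequences of HBA1 and HBA2 are identical over 429 bases, and the 2.81 and 4.81 CPM of HBA2 in K562 cannot be separated from those of HBA1 by coding reads.

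Genes of the red cell membrane and blood groups followed the globins. Of 16 in the tables, 14 were tested and all 14 were called higher in K562, with a median log2 fold change of 4.89, or 4.37 when genes at the floor are set to their bound, beside -0.02 over all genes tested. Of the 14, 4 were on in K562 alone and entered the test only through K562. GYPC, too low for the filter in SNB19, also did so, and whether others did was not counted. The count of 14 and the median therefore partly reflect the filter. GYPC, which encodes glycophorin C, stood at 413 and 488 CPM in K562 and 0.958 and 0.690 CPM in SNB19 (log2 fold change 9.06, SE 0.18, adjusted p = 3.53e-10). ANK1, the ankyrin that ties spectrin to the membrane, was present in both lines, at 871 and 684 CPM in K562 and 25.2 and 22.3 CPM in SNB19 (log2 fold change 5.03, SE 0.14). The Kell antigen gene KEL stood at 137 and 134 CPM against 0.213 and 0.115 CPM. SLC4A1, the band 3 anion exchanger of mature red cells, was among the 14 but was low also in K562, at 2.91 and 3.10 CPM.

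Heme synthesis and iron handling were divided. Of 16 genes, all tested, 6 were higher in K562, 4 were higher in SNB19 and 6 were not called, close to the background in both directions. Higher in K562 were FECH, which inserts iron into heme, at 250 and 247 CPM against 59.6 and 58.9 CPM (log2 fold change 2.07, SE 0.07), UROD of the porphyrin pathway, the mitochondrial iron importer SLC25A37 at 626 and 598 CPM against 92.4 and 92.9 CPM, ABCB10 and the iron exporter SLC40A1. ALAS1, the housekeeping form of the first enzyme of the pathway, was higher in SNB19, at 153 and 152 CPM against 60.2 and 64.4 CPM in K562, as were STEAP3, FTH1 and UROS. With total count scaling, UROS moved from a log2 fold change of -1.16 to -0.91 and was no longer called.

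The list of blood lineage transcription factors had members higher in each line. It also held genes that are not particular to blood, such as LIN28B, RUNX2 and HMGA2. Of 18 in the tables, 14 were tested, 7 were higher in K562 and 5 were higher in SNB19. NFE2, which drives globin and platelet genes, stood at 543 and 615 CPM in K562 and 1.49 and 1.73 CPM in SNB19 (log2 fold change 8.48, SE 0.14). GFI1B, a repressor needed for red cells and platelets, stood at 172 and 176 CPM against 0.107 and 0 CPM. HHEX at 276 and 309 CPM and IKZF1 at 194 and 168 CPM had no count in SNB19. For GFI1B, HHEX and IKZF1 the direction was set by the filter. SPI1, which encodes PU.1 of the myeloid lineage, and LIN28B, an RNA-binding protein of fetal cells, were also higher in K562, at 52.5 and 50.9 CPM and at 221 and 182 CPM. In the other direction, FLI1, an ETS factor of megakaryocytes and vessels, had 21.0 and 20.8 CPM in SNB19 and no count in K562, and RUNX2, which drives bone formation, stood at 339 and 343 CPM against 18.1 and 14.2 CPM. HMGA2 and EBF1 were higher in SNB19 as well.

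Most genes of a list around the fusion kinase and STAT5 had more RNA in K562, and the activity of the kinase and of STAT5 was not measured. The fusion kinase signals through STAT5, which turns on PIM1, CISH and MYC. Of 11 genes of this list, all tested, 8 were higher in K562, 1 was higher in SNB19 and 2 were not called, and the median log2 fold change was 3.29. STAT5A stood at 1301 and 1407 CPM in K562 and 6.92 and 8.05 CPM in SNB19 (log2 fold change 7.50, SE 0.11, adjusted p = 1.01e-10). STAT5B stood at 1460 and 1390 CPM against 146 and 145 CPM (log2 fold change 3.29, SE 0.07). The STAT5 targets were higher too: PIM1, a survival kinase, was at 1913 and 2016 CPM against 93.3 and 90.2 CPM, and CISH, a feedback inhibitor, at 423 and 401 CPM against 11.5 and 12.7 CPM. BCR, the 5′ partner of the fusion, was at 521 and 378 CPM against 122 and 109 CPM (log2 fold change 1.96, SE 0.14), and counts per gene do not tell its own transcripts from those of the fusion. The adaptor CRK was the gene of this list that was higher in SNB19, at 327 and 330 CPM against 96.1 and 92.5 CPM.

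Among 19 hematopoietic signaling and surface genes, 15 were tested, 9 were higher in K562 and 3 in SNB19. SPN (CD43, leukosialin) stood at 555 and 584 CPM in K562 and 0.426 and 0.345 CPM in SNB19. The kinases BTK, at 161 and 173 CPM, and SYK, at 130 and 120 CPM, were at 0 or 1 count in each SNB19 library, and LYN was present in both lines, at 260 and 262 CPM against 68.7 and 76.4 CPM. LCP1, the leukocyte plastin, was 4.91-fold higher in K562, at 119 and 111 CPM against 23.1 and 23.8 CPM. ITGA4 had counts in SNB19 alone, at 52.7 and 52.6 CPM, with no count in K562.

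Markers of other blood cells were sparse. Of 18 lymphoid genes in the tables, 14 were too low for a test, with 7 counts or fewer in each control library, and the 4 that were tested were higher in K562, among them CD3D at 18.4 and 19.1 CPM with no count in SNB19, CD22 at 12 and 13.1 CPM and RAG1 at 12.1 and 7.91 CPM. CD3D entered the test only through K562. The defining genes CD3E, CD2, CD8A and CD79B were at 0 or 1 count in each control library. Of 11 myeloid genes, 9 were not tested, MPO had 0 or 1 count in each library, and ITGAX was called higher in K562 at 5.20 and 6.62 CPM. ITGAX had 3 counts or fewer in each SNB19 library and entered the test only through K562. Of 10 megakaryocyte and platelet genes, 6 were tested, 3 were higher in K562, 2 were higher in SNB19 and 1 was not called. ITGA2B, at 11.8 and 17.3 CPM against 1.28 and 1.38 CPM, GP1BB and GP1BA (log2 fold change 0.89 and no longer called without SNB19 exp2) were higher in K562, ITGB3 and THBS1 were higher in SNB19, and PPBP, F13A1 and CLEC1B had no count in any control library. None of the 6 microglial genes in the tables reached the level for a test in the control libraries.

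**Figure D2:**
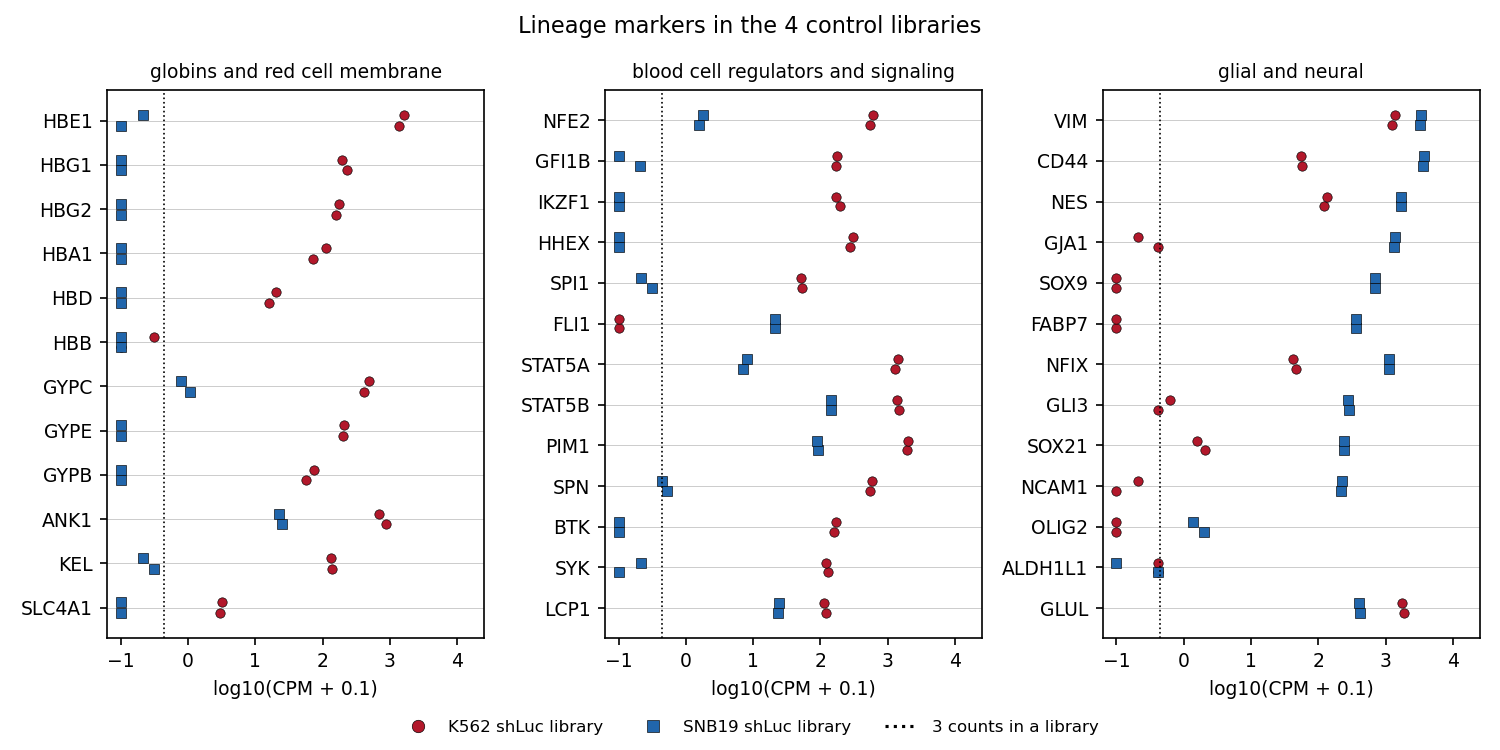
Level of lineage markers as log10(CPM + 0.1) in each of the 2 K562 shLuc libraries (circles) and the 2 SNB19 shLuc libraries (squares); the dotted line marks 3 counts in a library. HBE1, GYPC, NFE2 and SPN sit to the right in K562 and at or near the floor in SNB19, SOX9, FABP7, GJA1 and NCAM1 show the opposite, and GLUL is a glial gene with the higher level in K562, at 1865 and 1745 CPM.

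The glial side was tested with markers of astrocytes and of radial glia, the stem-like cells from which astrocytes arise. Such cells carry the intermediate filament proteins vimentin and nestin, the lipid carrier FABP7, the transcription factor SOX9 and gap junctions of connexin 43. Of 17 genes of this list in the tables, 16 were tested, 12 were higher in SNB19, 2 were higher in K562 and 2 were not called, with a median log2 fold change of -4.21. SOX9, FABP7, GJA1, GLI3, SPARCL1 and AGT had 5 counts or fewer in each K562 library and entered the test only through SNB19. VIM, NES, CD44, NFIX, NFIB and ID1 were well above the filter in K562 too. SOX9 had 702 and 693 CPM in SNB19 and no count in K562, at least 2205-fold higher, and FABP7 had 365 and 359 CPM and again no count in K562, at least 1144-fold higher. GJA1, connexin 43, stood at 1325 and 1372 CPM in SNB19 and at 0.312 and 0.107 CPM in K562. These genes were at the floor in 1 line and abundant in the other.

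The filament genes were shared. VIM stood at 3295 and 3378 CPM in SNB19 and 1266 and 1402 CPM in K562 (log2 fold change -1.32, SE 0.07, adjusted p = 2.31e-07). NES, the neural stem cell filament nestin, stood at 1714 and 1674 CPM in SNB19 and 121 and 133 CPM in K562, and the hyaluronan receptor CD44 at 3617 and 3714 CPM against 56.6 and 55.8 CPM. The nuclear factor genes NFIX (log2 fold change -4.68, SE 0.08) and NFIB (-2.66, SE 0.08) were also higher in SNB19. Against the list, glutamine synthetase GLUL was 4.41-fold higher in K562, and the brain proteoglycan gene BCAN stood at 16 and 18 CPM in K562 and 2.77 and 1.96 CPM in SNB19. ALDH1L1, a marker of mature astrocytes, was at 3 counts or fewer in every control library.

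Of 26 neural progenitor transcription factors in the tables, 18 were tested, 13 were higher in SNB19 and 4 in K562. SOX4 stood at 745 and 732 CPM in SNB19 and 20.9 and 16.5 CPM in K562, and SOX21 at 244 and 243 CPM against 2.0 and 1.5 CPM. POU3F3, ZIC1, LHX2 and SOX3 had no count in K562 and between 11 and 127 CPM in SNB19. OLIG2, a factor of oligodendrocyte precursors and many gliomas, was low in SNB19, at 1.92 and 1.27 CPM, and had no count in K562, while SOX11, HES5 and PROM1 were near the floor in both lines. SALL2, at 143 and 130 CPM against 21.9 and 23.5 CPM, and OTX1 were higher in K562.

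Among 11 neuronal genes, all 7 that were tested were higher in SNB19. NCAM1, a neural adhesion molecule, stood at 217 and 229 CPM in SNB19 and 0 and 0.107 CPM in K562, and the dendritic protein MAP2 at 163 and 171 CPM against 0 and 0.107 CPM. Both entered the test only through SNB19, and whether others of the 7 did so was not counted. The median log2 fold change was -7.60, or -5.79 with genes at the floor set to their bound. The defining genes of neurons were low, with TUBB3 at 6.60 and 5.75 CPM, SNAP25 at 3.30 and 1.84 CPM and DCX at 0 or 1 count in SNB19. Of 12 oligodendrocyte genes, 6 were tested. PDGFRA, the growth factor receptor of oligodendrocyte precursors, had 581 and 593 CPM in SNB19 and no count in K562, whereas the myelin genes MBP and MOG stayed at 10 counts or fewer in every control library, and MYRF, a myelin regulatory factor, was higher in K562 at 325 and 305 CPM against 18.2 and 18.4 CPM. Among markers tied to the label of SNB19 as a glial tumor line, NES and CD44 had ample counts in both lines and were higher in SNB19. SOX9 and FABP7 entered the test only through SNB19, so that their direction was set by the filter. ALDH1L1 and OLIG2 were low or absent in both lines, and GLUL and BCAN were higher in K562. Among markers tied to the label of K562, NFE2 and STAT5A had counts in both lines and were higher in K562. The globins on in K562 alone and the glycophorin genes GYPC and GYPE entered the test only through K562. Other blood genes went the other way. Of 14 blood lineage factors tested, 7 were higher in K562 and 5 in SNB19, among them FLI1, RUNX2, HMGA2 and EBF1. ITGA4, ITGB3 and ALAS1 were higher in SNB19 as well. SLC4A1 was called higher in K562 but was low there.

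Adherent cells lay down a matrix of collagens, laminins and glycoproteins and hold on to it through integrins, which link to the actin cytoskeleton at focal adhesions. Of 17 collagen genes in the tables, 16 were tested, 14 were higher in SNB19, 1 was higher in K562 and 1 was not called, and the median log2 fold change was -4.28, or -3.49 with bounds. COL1A2, of the fibrillar collagen I, stood at 3718 and 3814 CPM in SNB19 and 81.6 and 79.6 CPM in K562 (log2 fold change -5.55, SE 0.08, adjusted p = 9.03e-11). COL5A2 stood at 950 and 966 CPM against 0.624 and 0.534 CPM and COL12A1 at 1071 and 1091 CPM against 0.728 and 0.855 CPM. COL15A1, a collagen of basement membrane zones, was the exception, with 1771 and 1597 CPM in K562 and 0 and 1 count in SNB19, at least 5070-fold higher.

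Of 37 matrix glycoprotein and remodeling genes, 31 were tested, 25 were higher in SNB19 and 2 were higher in K562, with a median log2 fold change of -6.21, or -5.68 with bounds. SPARC, a collagen-binding glycoprotein, stood at 4728 and 4858 CPM in SNB19 and 59.1 and 59.5 CPM in K562. Versican (VCAN) stood at 2671 and 2728 CPM against 3.02 and 2.78 CPM, thrombospondin 1 (THBS1) at 1682 and 1695 CPM against 3.85 and 3.95 CPM, and the protease inhibitor TIMP2 at 1522 and 1542 CPM against 0.416 and 0.534 CPM. Fibronectin did not separate the lines: FN1 was at 1107 and 801 CPM in K562 and 1106 and 1093 CPM in SNB19 (log2 fold change -0.20, SE 0.13, adjusted p = 0.168, and above 0 with total count scaling or without K562 exp2), and its K562 libraries lay on either side of the SNB19 pair. The collagen chaperone SERPINH1 was higher in K562, at 299 and 286 CPM against 46.3 and 42.7 CPM, and FBLN2 was the other gene of the list higher there.

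Different integrin subunits were high in each line. Of 16 in the tables, 13 were tested, 9 were higher in SNB19, 3 were higher in K562 and 1 was not called. The laminin-binding subunits ITGA3, at 3780 and 3680 CPM against 1.35 and 1.07 CPM, and ITGB4, at 1802 and 1795 CPM against 49.8 and 46.6 CPM, were higher in SNB19. The shared beta chain ITGB1 differed by less than the threshold, at 883 and 839 CPM in K562 and 1092 and 1086 CPM in SNB19 (log2 fold change -0.34, SE 0.07). The 3 higher in K562, ITGA2B, ITGAX and ITGB7, are subunits known from platelets and leukocytes, but other such subunits were higher in SNB19. ITGB3, the partner chain of ITGA2B on platelets, stood at 147 and 139 CPM in SNB19 and 3.85 and 2.67 CPM in K562, and the leukocyte subunit ITGA4 was found in SNB19 alone. The same was seen among the parvins, adaptors of the integrin-linked kinase. PARVA stood at 221 and 223 CPM in SNB19 and 0.416 and 0.214 CPM in K562, while PARVB stood at 104 and 122 CPM in K562 and 0.107 and 0.460 CPM in SNB19. FERMT3, the blood cell kindlin that activates integrins, stood at 316 and 317 CPM in K562 against 0.426 and 1.27 CPM.

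Of 29 genes of focal adhesions and the contractile cytoskeleton, 28 were tested, 15 were higher in SNB19 and 6 in K562. CALD1, the actin-binding protein caldesmon, stood at 2556 and 2608 CPM in SNB19 and 0.312 and 0.107 CPM in K562, at least 8164-fold higher in SNB19. FLNA, the actin crosslinker filamin A, stood at 15268 and 15526 CPM against 1608 and 1377 CPM (log2 fold change -3.37, SE 0.09) and was the nuclear gene with the most counts per kilobase in SNB19, at 1455 CPM per kb. Talin (TLN1) and vinculin (VCL) were not called, at log2 fold changes of 0.62 and 0.42 toward K562. S100A6, a calcium-binding protein, stood at 1371 and 1429 CPM in SNB19 and 1.04 and 0.962 CPM in K562.

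YAP and TAZ (WWTR1) are coactivators that enter the nucleus in spread, adherent cells and act through TEAD factors. Of 15 genes of this list, all tested, 12 were higher in SNB19 and 2 in K562. YAP1 stood at 152 and 146 CPM in SNB19 and at 2 counts in each K562 library, at least 471-fold higher, and WWTR1 at 345 and 347 CPM against 0.416 and 0.321 CPM. The target gene ANKRD1 had 179 and 182 CPM in SNB19 and no count in K562, and AMOTL2 stood at 266 and 265 CPM against 0.520 and 0.534 CPM. TEAD4 and AMOTL1 were higher in K562. Among cadherins and genes of the mesenchymal transition, CDH11, PRRX1, TWIST1 and SNAI2 were higher in SNB19 and SNAI1 in K562, and CDH1, the epithelial cadherin, was at 8 counts or fewer in every control library.

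**Figure D3:**
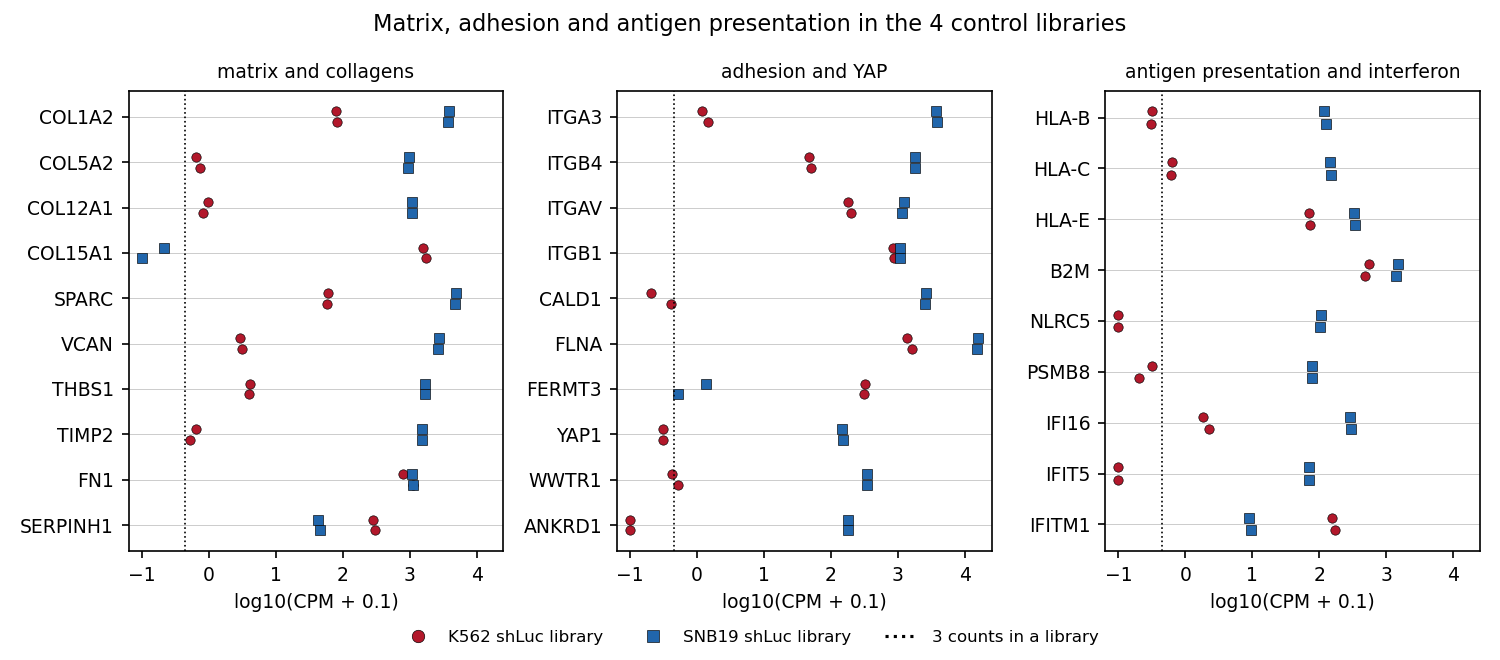
Level as log10(CPM + 0.1) of matrix, adhesion, YAP and antigen presentation genes in each of the 2 K562 shLuc libraries (circles) and the 2 SNB19 shLuc libraries (squares); the dotted line marks 3 counts in a library. Most genes lie to the right in SNB19, FN1 and ITGB1 lie close together, and COL15A1, SERPINH1, FERMT3 and IFITM1 lie to the right in K562.

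MHC class I molecules present peptides to T cells and consist of an HLA heavy chain and B2M, and NLRC5 is the transactivator of their genes. K562 is known as a cell without surface class I. Of 16 genes of this list, 15 were tested, 9 were higher in SNB19, 1 was higher in K562 and 5 were not called. HLA-B stood at 128 and 118 CPM in SNB19 and at 2 counts in each K562 library, and HLA-C at 151 and 148 CPM against 0.520 and 0.534 CPM. NLRC5 had 102 and 107 CPM in SNB19 and no count in K562, and the immunoproteasome subunit PSMB8 79.2 and 77.9 CPM against 1 and 2 counts. B2M was present in both lines, at 1422 and 1507 CPM in SNB19 and 482 and 556 CPM in K562 (2.82-fold), as was the nonclassical HLA-E. Reads from the similar HLA genes can be misassigned, and the levels of each are less certain than the finding that HLA-B and HLA-C were at or near the floor in K562. TAP2, TAPBP and PDIA3 of the loading complex were not called, and the trimming enzyme ERAP1 was 2.25-fold higher in K562, a call that ended without K562 exp1, at a log2 fold change of 0.99. Of 11 class II genes, 8 were not tested, and HLA-DRA had no count in any control library.

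Of 23 interferon response genes, 22 were tested, 12 were higher in SNB19 and 3 in K562. IFI16, a DNA sensor, stood at 298 and 286 CPM in SNB19 and 2.18 and 1.71 CPM in K562, IFIT5 at 69.7 and 71.3 CPM with no count in K562, and TRIM22 at 114 and 108 CPM against 0.624 and 0.107 CPM. IFITM1 ran the other way, at 174 and 156 CPM in K562 and 9.37 and 8.85 CPM in SNB19, together with IRF7 and RSAD2. IRF1, IRF3 and IRF9 were not called.

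Receptor tyrosine kinases, which bind growth factors, were mostly on the side of SNB19. Of 22 in the tables, 19 were tested, 12 were higher in SNB19, 3 were higher in K562 and 4 were not called. EGFR had 346 and 347 CPM in SNB19 and no count in K562, at least 1096-fold higher, and PDGFRA no count in K562 either. IGF1R stood at 640 and 650 CPM against 78.3 and 64.1 CPM, and EPHB2 at 290 and 278 CPM against 0.208 and 0 CPM. The receptors higher in K562 included MST1R and FLT4. NTRK2 and NTRK3 were found in SNB19 alone, at 7.82 to 9.58 CPM. Of the ligands, TGFA, at 206 and 202 CPM, and PDGFC, at 307 CPM in both SNB19 libraries, were at 0 or 1 count in K562, while PDGFA, EREG and VEGFA were higher in K562.

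Tumor suppressor genes differed as well. Of 10 in the tables, all tested, 6 were higher in SNB19 and 2 in K562. CDKN1A, the cell cycle inhibitor p21, stood at 261 and 256 CPM in SNB19 and 41.1 and 42.5 CPM in K562, and NF2 at 611 and 577 CPM against 79.3 and 81.1 CPM. CDKN2C, the CDK inhibitor p18, had 208 and 218 CPM in K562 and no count in SNB19, at least 640-fold higher. The next protein-coding gene in the annotation, FAF1, also had no count in SNB19, and counts of RNA do not tell a deleted gene from a silent one. NF1 was 3.35-fold higher in K562.

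Of 14 cancer-testis genes, antigens of germ cells that tumors turn on, 5 were tested. PRAME had 3854 and 4239 CPM in K562 and 1 and 0 counts in SNB19, at least 12182-fold higher. MAGEB1 was also found in K562 alone, MAGEA3 was higher in K562 and MAGEA12 in SNB19, though not with total count scaling (log2 fold change -0.93), and the MAGEA genes share long stretches of sequence, which makes their separate counts uncertain. Of 10 HOX genes, 7 were tested, with HOXC12 found in K562 alone at 12.3 and 11.8 CPM and HOXC4 higher in SNB19 at 15 and 13.7 CPM.

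CHD9, the subject of the series, and its relatives are ATP-dependent chromatin remodelers with chromodomains. Of 5 CHD genes in the tables, 4 were tested and CHD9 was the one called. It stood at 297 and 218 CPM in K562 and 712 and 725 CPM in SNB19, a log2 fold change of -1.48 (SE 0.13, adjusted p = 4.61e-06). CHD1, at 331 and 263 CPM in K562 and 198 and 201 CPM in SNB19, CHD2, at 570 and 507 CPM and 501 and 496 CPM, and CHD6, at 255 and 175 CPM and 304 and 298 CPM, differed by less than 2-fold, and CHD5 was at 16 counts or fewer in every control library. In the libraries with a CHD9 hairpin, CHD9 stood between 126 and 136 CPM in K562 and between 235 and 372 CPM in SNB19, below the control libraries of the same line.

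Proteasome and ribosomal genes were tested as general cell machinery. Of 13 proteasome genes, 11 were not called and 2, PSMA2 and PSMD1, were higher in SNB19, PSMD1 only just, at a log2 fold change of -1.07 that fell short of the threshold with total count scaling and without K562 exp1. All 42 cytosolic ribosomal protein genes in the tables had a fitted difference toward K562 and 27 of them were called, with a median log2 fold change of 1.19, none being higher in SNB19. That median lies close to the threshold, and 35 were called with total count scaling and 26 with DESeq2. The K562 libraries also differed for some of them, with RPL13 at 682 CPM in exp1 and 886 CPM in exp2. RPS3, for example, stood at 1393 and 1591 CPM in K562 and 381 and 401 CPM in SNB19 (log2 fold change 1.93, SE 0.08). With CHD9 hairpin 1 and with CHD9 hairpin 2, 9 of the 42 were called higher in K562, at medians of 0.66 and 0.72. Many ribosomal protein genes have processed pseudogenes, so that their counts depend on how such reads were assigned.

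**Figure D4:**
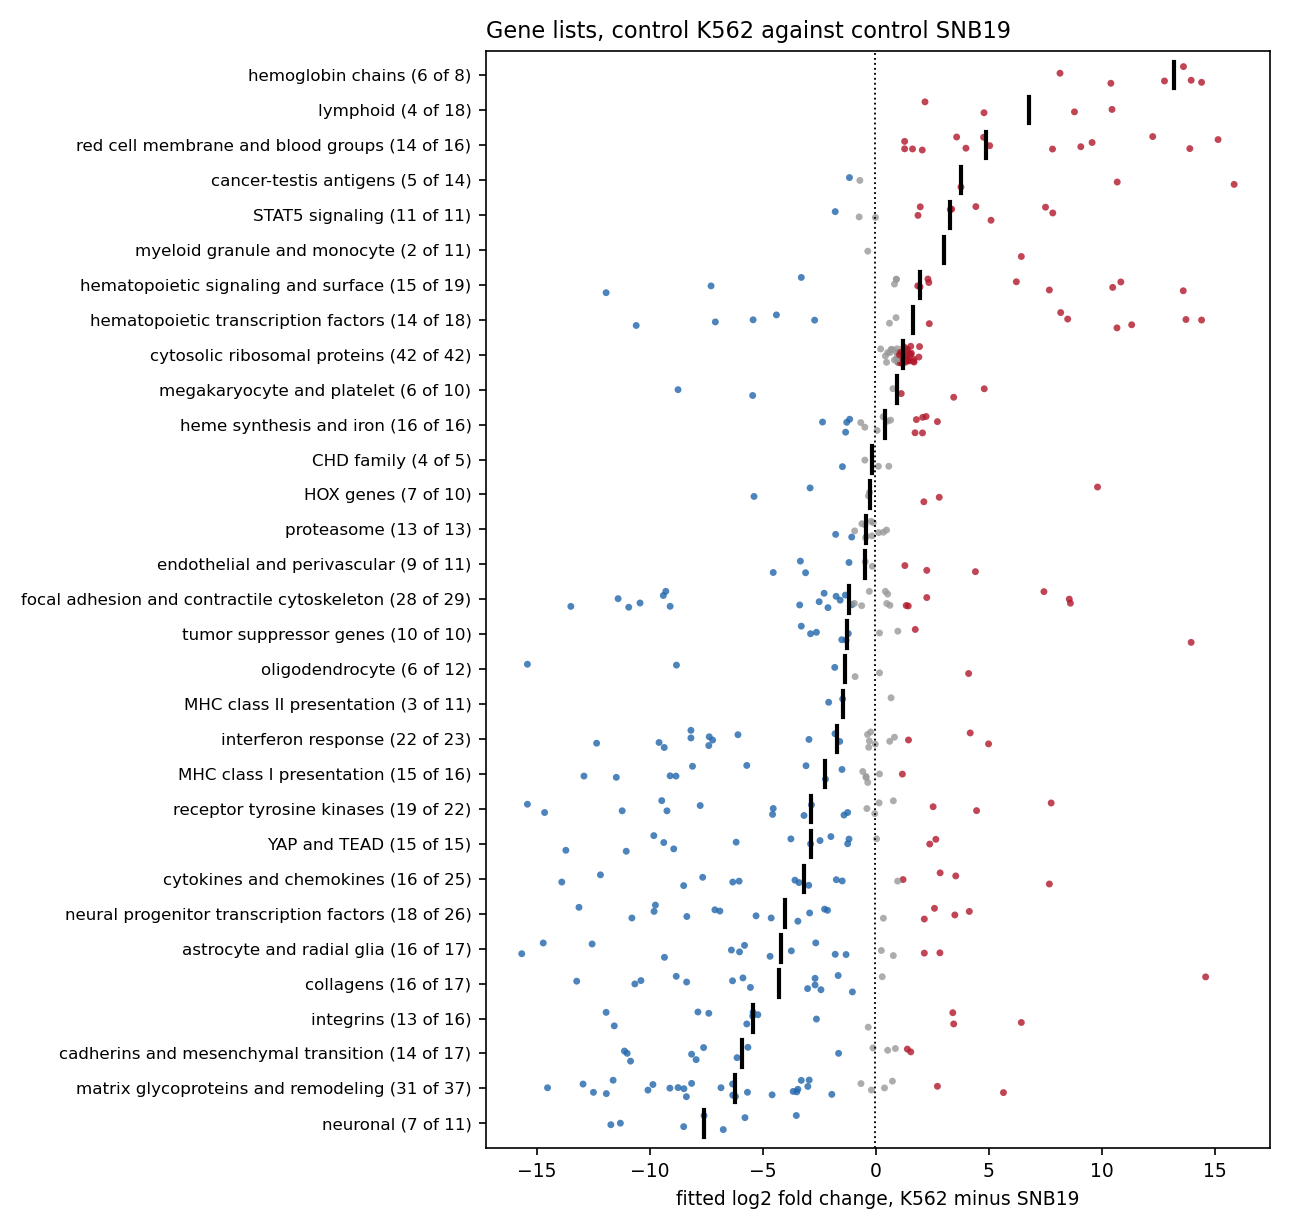
Fitted log2 fold change (K562 minus SNB19) of each tested member of 31 gene lists, with a bar at the list's median and the number tested of those in the tables beside its name; red marks genes called higher in K562, blue genes called higher in SNB19 and gray genes not called, and the dotted line is the median over all genes tested, -0.02. Hemoglobin chains lie at the top, at a median of 13.18, and matrix glycoproteins and neuronal genes at the bottom, at -6.21 and -7.60; with genes at the floor set to their bound these medians are 8.56, -5.68 and -5.79, and cadherins and mesenchymal genes, at -5.90, lie lowest.

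The genes with the largest fitted differences, among called genes at 50 CPM or more in the higher line, included many outside these lists. Higher in K562 were DLK1, a Notch-like ligand of fetal tissues, at 1018 and 1047 CPM with no count in SNB19, FAF1 at 450 and 482 CPM, the kinase PRKCB at 1297 and 1107 CPM, the muscle genes TRDN and MYL4, HEMGN, a nuclear protein of blood cells, and the GABA receptor subunit GABRA2. Of the 15 with the largest difference, 5 were globin, membrane or blood factor genes of the lists above, among them HHEX, HBE1, HBG1 and GYPE. Higher in SNB19 were EDIL3, a secreted integrin ligand, at 2636 and 2773 CPM, TENM2 at 1125 and 1176 CPM, the Wnt inhibitor DKK1 at 875 and 893 CPM, ALPK2, the metalloprotease ADAM12, LINC00461, a long noncoding RNA, the keratin KRT80, BTBD3, LAYN and PLK2. All 15 of the SNB19 side had no count in either K562 library. A fitted fold against a line with no counts depends on the prior count of the model, and the order within these 15 is therefore a description only.

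Measured per kilobase, mitochondrial transcripts led in both lines. Apart from these, EEF2, an elongation factor, HBE1, PRAME and HMGA1 led in K562, at 2205, 1549, 1072 and 891 CPM per kb, and FLNA, S100A6, PSAP and TMSB10 led in SNB19, at 1455, 1442, 1379 and 1193 CPM per kb. EEF2, TMSB10 and TUBB were among the 10 highest in both lines and were not called, except that EEF2 passed with total count scaling at a log2 fold change of 1.16.

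The same comparison was made in the libraries with a CHD9 hairpin, which share no library with the control comparison. With CHD9 hairpin 1, 5248 of 9726 genes tested were called (54.0%), and with CHD9 hairpin 2, 5439 of 9761 (55.7%). The replicates of SNB19 with CHD9 hairpin 2 lay far apart, with a chi-square statistic per degree of freedom of 20.1. Of the 2568 genes higher in K562 in the control libraries, 1940 were called in the same direction with hairpin 1, which is 75.6% of the control calls and 71.8% of the calls with hairpin 1, and 2130 with hairpin 2 (82.9% and 74.7%). Of the 2743 genes higher in SNB19, 2174 recurred with hairpin 1 (79.3% and 85.4%) and 2255 with hairpin 2 (82.2% and 87.2%). All 3 comparisons shared 1875 genes higher in K562 and 2078 higher in SNB19.

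Most of the lineage calls recurred. All 6 hemoglobin genes tested were again called higher in K562 with either hairpin, while of the 14 red cell membrane and blood group genes 11 were called with hairpin 1 and 13 with hairpin 2. Of the astrocyte and radial glia genes, 11 were called higher in SNB19 with either hairpin, beside 12 in the control libraries. HBE1 stood between 1307 and 1611 CPM in the 4 K562 libraries with a CHD9 hairpin and at 0.114 CPM or less in those of SNB19. SOX9 had no count in the former and stood between 379 and 642 CPM in the latter. STAT5A stood between 1034 and 1352 CPM in K562 and between 7.40 and 10.7 CPM in SNB19. Sizes varied more. COL15A1 stood between 366 and 698 CPM in K562 with a CHD9 hairpin, under both control values, and CD44 between 208 and 460 CPM, over both control values. The Notch target HEY1, at 11.2 and 13.7 CPM in K562 and 130 and 141 CPM in SNB19 in the control libraries, stood between 66.1 and 154 CPM in K562 and between 37.9 and 49.4 CPM in SNB19 with a CHD9 hairpin, and was called higher in SNB19 in the control comparison and higher in K562 with hairpin 1.

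**Figure D5:**
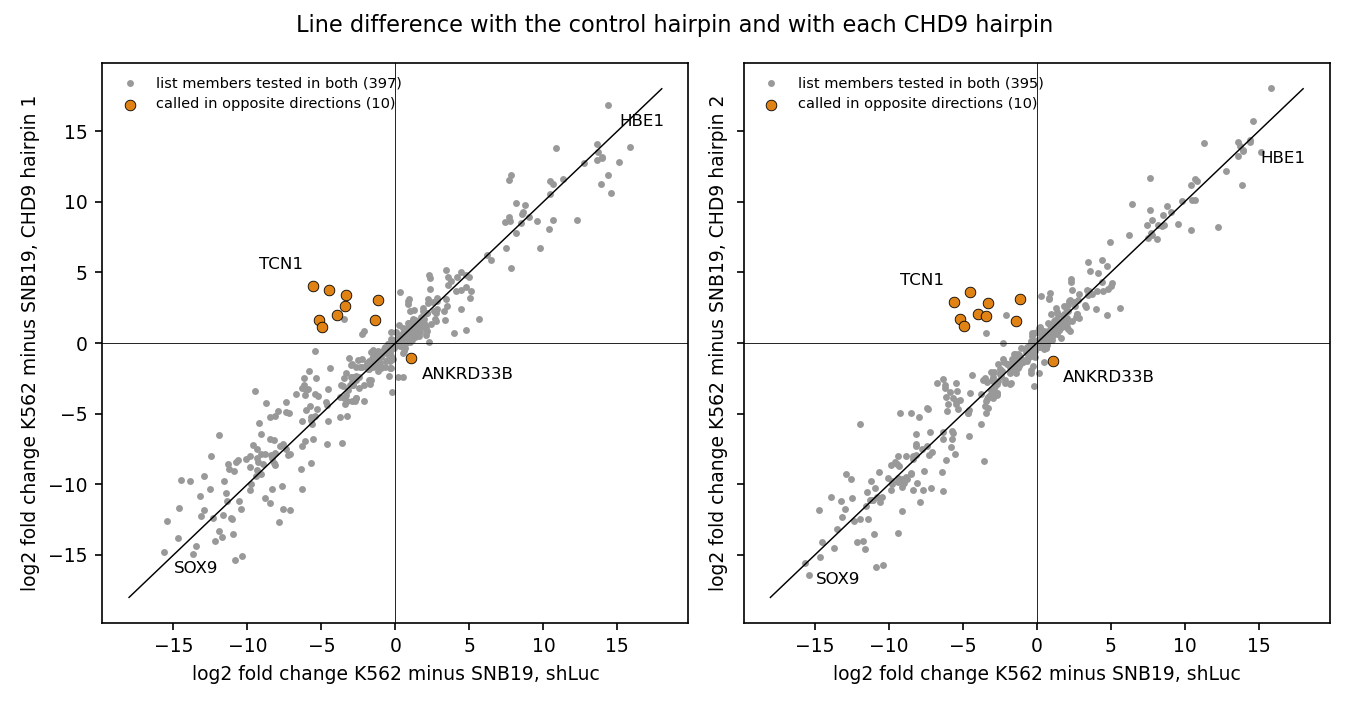
Fitted log2 fold change (K562 minus SNB19) in the shLuc libraries (horizontal) against that with CHD9 hairpin 1 (left) and CHD9 hairpin 2 (right), for list members tested in both (gray) and for the 10 genes called in opposite directions (orange); the line marks equal values. HBE1 and SOX9 lie near the line at its ends, and 9 of the 10 orange genes lie to the left of 0 and above it.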

How the data were processed

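RNA of K562 and SNB19 cells was prepared with the TruSeq protocol and sequenced on a HiSeq instrument. The authors aligned the reads to hg37 with TopHat2 2.1 and deposited, for each line, a table of raw read counts per Ensembl gene made with HTSeq 0.5.3. Whether counting used strand is not given in the sources used here, so that overlapping and antisense genes cannot be told apart. No normalization had been applied to the deposited counts, and 0 columns lay outside the sample list.

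The tables were joined by Ensembl identifier, which gave 29828 genes, of which 90.4% had a symbol in GENCODE 29. Its build differs from hg37, so that it served for names, neighbors, transcript sequences and approximate exon lengths, and no coordinates are given. Counts were analysed in R 4.3.3 with edgeR 4.0.16 (filterByExpr, TMM scaling, quasi-likelihood F-test, Benjamini-Hochberg adjustment over the genes tested), 2 K562 shLuc against 2 SNB19 shLuc libraries with no covariate. The standard error is the fitted log2 fold change divided by the root of F. The members, lists and tests were chosen with earlier results of these data known. The lists were written from general knowledge, and each is described by its counts and median with no test of the list. Named genes are list members, the 15 with the largest fitted difference in each direction among called genes at 50 CPM or more, the 10 with the most counts per kilobase in each line, and the genes called in opposite directions with both CHD9 hairpins, which were chosen after their values were seen. Some genes are not reported here. The fit was tested on counts simulated from these libraries, with known changes. The simulation gave all libraries the same spread and changed a small part of the genes. It therefore does not test the fit under the unequal spread and the many differences of these data.

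The alternatives tried were DESeq2 1.42.0, its size factors within edgeR, total counts only, a minimum mean of 10 counts, every gene with no filter, the experiment number as a block, all 12 human libraries in 1 fit, the adjusted p alone, a log2 fold change beyond 3 and leaving out each library. Summing the SNB19 libraries was added after seeing the data. The correlation between the lines of the difference between exp1 and exp2 was -0.0152. It cannot tell whether the experiment numbers pair the libraries, because the SNB19 pair differed by little more than sampling noise.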

Additional observations from a re-analysis of the deposited data

Results flagged for a closer look

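For 10 genes the line difference in the control libraries ran opposite to that with both CHD9 hairpins, and the difference between these differences passed a test of the interaction in 1 fit of the 12 human libraries (the quasi-likelihood test of edgeR, Benjamini-Hochberg adjusted p between 3.43e-14 and 3.80e-06). The genes were picked for their opposite calls, so that the test is a description of these libraries. Except for ANKRD33B, each was higher in SNB19 with shLuc and higher in K562 with both CHD9 hairpins. DMD, the dystrophin gene, stood at 1.66 and 0.962 CPM in the K562 control libraries and 12.2 and 14.4 CPM in those of SNB19, and between 58.6 and 76.3 CPM in K562 and between 3.88 and 11.7 CPM in SNB19 with a CHD9 hairpin, an interaction of -6.42 on the log2 scale. TCN1, a vitamin B12 carrier, had 3 and 1 counts in the K562 control libraries and 10.7 and 10.6 CPM in those of SNB19, and between 19.4 and 27.0 CPM in K562 with a CHD9 hairpin (interaction -9.05). The interaction was -5.69 for TDO2, which breaks down tryptophan, -5.93 for the pyruvate dehydrogenase kinase PDK4 and -4.25 for RAP1GAP2. For TMEM246, CASC9, NBEAP1 and TMEM163 it was -8.19, -6.79, -6.13 and -2.94. ANKRD33B, higher in K562 with shLuc and in SNB19 with the CHD9 hairpins, had an interaction of 2.27. Except for DMD, TCN1 and TDO2, these genes were under 10 CPM in all 4 control libraries. The control calls of RAP1GAP2 and ANKRD33B were near the threshold and ended without K562 exp2 and without K562 exp1, at log2 fold changes of -0.97 and 0.73, and both also ended without SNB19 exp2, at -0.94 and 0.89. The RAP1GAP2 call was also lost with DESeq2 (-1.19) and with total counts (-0.91), and that of ANKRD33B with the SNB19 libraries summed (1.00). Each direction was shown by 2 of 2 libraries of each line in the control comparison.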

How the results depend on the processing

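The counts of genes higher in either line, or on in 1 line alone, stayed within 1.5 times of those reported under each change of tool, scaling, filter and libraries that was run. Without 1 library, genes higher in K562 numbered 2536 to 2638, those higher in SNB19 2770 to 3014, those restricted to K562 183 to 213 and those restricted to SNB19 434 to 478. The thresholds mattered more: with the adjusted p alone, 3960 genes were higher in K562, and 8513 were called with CHD9 hairpin 1, while a log2 fold change beyond 3 left 1008 higher in K562, 1490 higher in SNB19, 2480 called with hairpin 1 and 2607 called with hairpin 2. The experiment number as a block gave 2566 and 2748 genes and changed no call of a named gene, and the SNB19 libraries summed as 1 gave 2627 and 2931. Of 2516 values of 210 named genes under the alternatives, 13 lost the call, 1 gained it and 3 changed sign: FN1 was at 0.04 and TUBB at 0.19 with total counts, and FN1 ranged from -0.44 to 0.03 without 1 library, above 0 without K562 exp2. Of 372 list medians, 5 changed sign. They were the CHD family with total counts (0.06), the HOX genes without a filter (0.59) and the 2 tested myeloid genes with all 12 libraries in 1 fit (-0.38), without K562 exp1 (-0.18) and without K562 exp2 (-0.53), where 3 to 5 myeloid genes entered the test. Without 1 library that median ran from -0.53 to 4.28. Genes near the floor are limited by depth: 3 counts are worth 0.312 to 0.345 CPM in a control library.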

Other observations

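By chromosome, the median log2 fold change of the genes tested ranged from -0.92 on chromosome X, over 308 genes of which 49.0% were higher in SNB19 and 14.3% in K562, to 0.83 on chromosome 21, over 57 genes of which 15.8% were higher in SNB19 and 47.4% in K562. Chromosomes 22, 16, 18 and 12 had medians of 0.56, 0.52, 0.52 and 0.50, and chromosomes 19, 2 and 20 had medians of -0.37, -0.36 and -0.35. The number of copies of each chromosome was not measured here.

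Genes on in 1 line and at the floor in the other at times stood next to each other. Among 7161 protein-coding genes tested, in the order of the annotation, 10 runs of 3 or more neighbors were found, chosen here after their values were seen. The longest was the beta-globin row on chromosome 11, HBD, HBG1, HBG2 and HBE1 with the olfactory receptor gene OR51B5 behind them, found in K562. The other 9 runs were found in SNB19 and had 3 or 4 genes: KIRREL3, ETS1, FLI1 and ARHGAP32 on chromosome 11, the serpin genes SERPINA1, SERPINA5 and SERPINA3 on chromosome 14, LIPA, IFIT1 and IFIT5 on chromosome 10, VLDLR, GLIS3 and SLC1A1 and then PTPRD, TYRP1 and LURAP1L on chromosome 9, CTSO, PDGFC and FAM198B on chromosome 4, AGR2, AHR and TWIST1 on chromosome 7, and 2 trios of zinc finger genes on chromosome 19. Genes that were not in the tables may lie between these neighbors.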
